A study of Oryza sativa with 12 samples.

Results

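SAMS2 and METK3 are rice genes for S-adenosylmethionine synthetases. They were followed through every probe set that the array annotation assigns to exactly 1 gene bearing either name. Of 57381 probe sets on the array, 22436 had 1 gene, for 17905 genes in all, and 3 of them belonged to these 2 genes. SAMS2 (LOC4326996, also called SAM2) had 2 probe sets, called here the brighter and the dimmer one by their signal, and METK3 (LOC4325163) had 1. All 3 passed the filter on low signals, under which a probe set had to lie above its array's median on at least 3 of the 12 arrays. In the RefSeq gene table of assembly ASM3414082v1, METK3 and SAMS2 lie on the same chromosome, with 109 protein-coding genes starting between them.

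S-adenosylmethionine synthetase joins methionine to ATP and releases S-adenosylmethionine, the methyl donor of most methylation reactions in the cell. Plants also use this product as the starting material of ethylene, of the polyamines spermidine and spermine, and of the metal chelator nicotianamine. Methionine and lysine are both made from aspartate, so the enzyme uses the product of a branch that parts from lysine synthesis.

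Developing seeds were profiled on an Affymetrix rice array in the transgenic lines GR14, 35S-15 and HFL1, labelled as having a high lysine level, and in the wild-type variety Wuxiangjiang9 (WT), labelled as normal in lysine. Each of the 4 groups had 3 arrays. The sample labels give the seed age as 10 days after flowering for every group, while the design text gives 15. Plants were field grown, and the labels say neither what construct or promoter each line carries, nor whether a line is 1 transformant, nor if separate plants supplied the replicate arrays. P-values thus cover only array-to-array spread, some or all of which could be technical. From earlier work on these lines, and not from the labels, HFL1 is known to combine GR14 and 35S-15. The authors deposited MAS5 signal, a linear intensity, and values are given either as that signal or as its log2.

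Any pair of arrays had a Spearman correlation of 0.925 to 0.971 across the 31792 probe sets tested. Endosperm markers fitted the seed label, with 11 of 12 marker genes above the array median on all 3 arrays of each group, and 6 of 7 embryo and aleurone markers did the same. The arrays labelled WT were not alike. A reporter probe set for a gene foreign to rice had log2 signals of 13.51 and 13.78 on WT arrays 2 and 3, against 4.53 on WT array 1 and at most 4.67 on the 9 arrays of the lines. The WT label thus covers unlike arrays, and values without WT array 1, or with it alone, are given beside the calls against WT that they change.

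SAMS2 transcript was lower in GR14 than in the other 3 groups by its brighter probe set. The brighter SAMS2 probe set read 4907, 4806 and 5398 on the GR14 arrays, 13650, 13152 and 10999 on those of 35S-15, 11489, 12444 and 10854 on those of HFL1, and 10881, 10707 and 9589 on the WT arrays. The highest GR14 array lay below the lowest array of each other group. The mean signal was 5037 ± 317 in GR14, 12600 ± 1409 in 35S-15, 11596 ± 800 in HFL1 and 10392 ± 701 in WT (SD, n = 3 each). On the log2 scale the means were 12.30 ± 0.09 in GR14, 13.61 ± 0.17 in 35S-15, 13.50 ± 0.10 in HFL1 and 13.34 ± 0.10 in WT (SD, n = 3 each). The transcript was abundant in every group. Its probe set stood between percentiles 96.5 and 97.1 of its array in GR14, 98.7 and 99.1 in 35S-15, 98.8 and 99 in HFL1, and 98.5 and 98.8 in WT.

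The GR14 minus WT difference in log2 signal was -1.04 ± 0.12 (SE; 95% interval -1.31 to -0.78), with a limma adjusted p of 0.000215. GR14 seeds thus had 48.5% of the WT signal, with an interval of 0.404 to 0.581 as a ratio. In that comparison 5.66% of all tested probe sets passed the same threshold (adjusted p under 0.05). Over 22 alternative fits the difference ran from -1.12 to -1.01 and the limma adjusted p from 0.000139 to 0.00867, so it passed in each. A whole seed was measured, and fewer cells that express the gene cannot be told apart from less transcript per cell.

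Against GR14 the other 2 lines were higher. The log2 difference in signal was 1.20 (95% interval 0.94 to 1.46) for HFL1 minus GR14, a 2.3-fold difference with a limma adjusted p of 6.57e-05. It was 1.32 (1.06 to 1.58) for 35S-15 minus GR14, a 2.49-fold difference with a limma adjusted p of 2.94e-05. The share of all tested probe sets that passed was 6.71% for HFL1 minus GR14 and 5.94% for 35S-15 minus GR14. These 2 comparisons share the GR14 arrays with each other and with GR14 minus WT.

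35S-15, HFL1 and WT were not separated by the test. 35S-15 minus WT was 0.27 in log2 signal (95% interval 0.01 to 0.54) with a limma adjusted p of 0.803, although the lowest 35S-15 array, at 10999, was just above the highest WT array, at 10881. HFL1 minus WT was 0.16 (-0.10 to 0.42), with a limma adjusted p of 0.849. HFL1 minus 35S-15 was -0.12 (-0.38 to 0.15), with a limma adjusted p of 0.979. Few probe sets of any kind passed in these comparisons, namely 0.0283% for 35S-15 minus WT, 0.0283% for HFL1 minus WT and 0.00629% for HFL1 minus 35S-15. In order of level the groups ran 35S-15, HFL1, WT and GR14, and only the step down to GR14 passed.

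**Figure D1:**
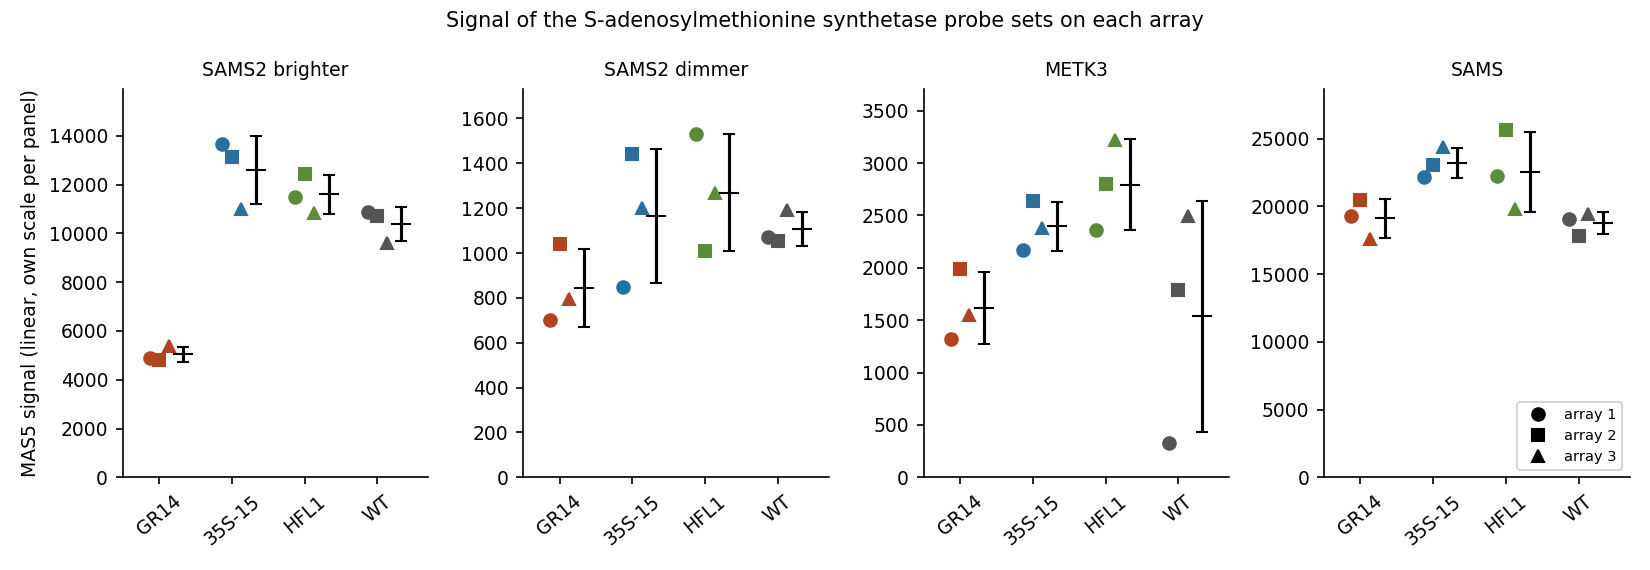
MAS5 signal on a linear axis, with its own scale in each panel, for both SAMS2 probe sets, METK3 and SAMS, another annotated synthetase gene; points are the 3 arrays of each group and black bars are the mean ± SD. The 3 GR14 points of the brighter SAMS2 probe set lie between 4806 and 5398, below all 9 other arrays, and the METK3 point at 330.5 is WT array 1.

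The second SAMS2 probe set gave a more scattered picture. The dimmer SAMS2 probe set read 702.1, 1039 and 795.4 on the GR14 arrays, 850.4, 1443 and 1202 on those of 35S-15, 1531, 1009 and 1269 on those of HFL1, and 1070, 1055 and 1192 on the WT arrays. All GR14 arrays were below all WT arrays, but GR14 array 2, at 1039, was above an array of 35S-15 and an array of HFL1. The log2 means were 9.70 ± 0.29 in GR14, 10.15 ± 0.39 in 35S-15, 10.29 ± 0.30 in HFL1 and 10.11 ± 0.10 in WT (SD, n = 3 each). GR14 minus WT was -0.40 ± 0.22 in log2 signal (SE; 95% interval -0.87 to 0.06), with a limma adjusted p of 0.321.

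No comparison passed for this probe set. HFL1 minus GR14 was 0.59 (95% interval 0.12 to 1.05), with a limma adjusted p of 0.136. 35S-15 minus GR14 was 0.45 (-0.02 to 0.92; limma adjusted p 0.276). The remaining differences in log2 signal were 0.04 for 35S-15 minus WT (-0.42 to 0.51), 0.18 for HFL1 minus WT (-0.29 to 0.65) and 0.14 for HFL1 minus 35S-15 (-0.33 to 0.60). Their limma adjusted p was at least 0.921. The estimates for GR14 thus pointed the same way by both probe sets and were smaller in size by the dimmer one. The 95% intervals of the probe sets overlapped for GR14 minus WT and HFL1 minus GR14, and not for 35S-15 minus GR14. The SAMS2 result rests on the brighter probe set.

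Whether the probe sets of SAMS2 moved unequally was examined within arrays. The log2 signal of the brighter minus that of the dimmer probe set was 2.59 ± 0.33 in GR14 (range 2.21 to 2.81), against 3.23 ± 0.19 in WT (range 3.01 to 3.35; SD, n = 3 each). The change in this gap was -0.64, with an exact two-sided permutation p of 0.1, the smallest that 3 arrays against 3 allow. HFL1 minus GR14 gave 0.62 and 35S-15 minus GR14 gave 0.87, each again with an exact permutation p of 0.1. The gap was narrower on every GR14 array than on any array of the other groups. Over the 12 arrays the log2 signals of the probe sets had a Pearson r of 0.58, given as a description of arrays that share the GR14 difference.

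METK3 showed no difference that passed, and its WT arrays were spread widely. The METK3 probe set read 1316, 1987 and 1546 on the GR14 arrays, 2169, 2637 and 2380 on those of 35S-15, 2360, 2804 and 3221 on those of HFL1, and 330.5, 1784 and 2493 on the WT arrays. WT array 1 was the lowest of all 12, while WT arrays 2 and 3 lay among the arrays of the lines. The log2 means were 10.64 ± 0.30 in GR14, 11.22 ± 0.14 in 35S-15, 11.44 ± 0.22 in HFL1 and 10.15 ± 1.56 in WT (SD, n = 3 each). Percentiles within the array were 86.7 to 90.9 in GR14, 91.6 to 93.2 in 35S-15 and 92.3 to 94.5 in HFL1, against 71.7, 89.9 and 92.7 on the 3 WT arrays.

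In all 3 lines the METK3 difference from WT was positive and none passed. GR14 minus WT was 0.49 ± 0.52 in log2 signal (SE; 95% interval -0.64 to 1.61), with a limma adjusted p of 0.654. 35S-15 minus WT was 1.07 (-0.06 to 2.20), with a limma adjusted p of 0.804. HFL1 minus WT was 1.29 (0.16 to 2.41), with a limma adjusted p of 0.724. These differences depend on 1 array. WT array 1 was 1.99 log2 units below the lowest of the other 11, and it stood at least 1 unit below all others for 7 of 9144 brightly measured probe sets (median log2 signal of at least 10), a number that was 0 to 14 on the other arrays. The 3' minus 5' difference in log2 signal of the EF1a control was 0.88 on this array and between -2.29 and -0.53 on the other 11. The part of RNA quality in the METK3 values was not tested.

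Without WT array 1 the GR14 minus WT difference of METK3 turned to -0.40 (limma adjusted p 0.329). The other 2 lines then differed from WT by 0.18 in 35S-15 (limma adjusted p 0.913) and 0.39 in HFL1 (0.936). WT arrays 2 and 3 had a mean log2 signal of 11.04, which lies between the means of GR14 and 35S-15. With WT array 1 as the only WT array, all 3 differences passed. They were 2.27 in GR14 (limma adjusted p 0.00119), 2.85 in 35S-15 (0.00119) and 3.07 in HFL1 (0.000465), in a fit that assumes the lone array varies like the other groups. The direction of METK3 in GR14 against WT was thus set by which WT arrays were used.

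Between the lines, METK3 passed in no comparison of the fit over all arrays. The 3 HFL1 arrays, at 2360 to 3221, were above the 3 GR14 arrays, at 1316 to 1987. The 3 35S-15 arrays, at 2169 to 2637, were above the GR14 arrays too. The share of all probe sets without overlap was not counted, here or for SAMS2, so lack of overlap is only described. HFL1 minus GR14 was 0.80 in log2 signal (95% interval -0.33 to 1.93), with a limma adjusted p of 0.426. 35S-15 minus GR14 was 0.58 (-0.54 to 1.71), with a limma adjusted p of 0.599. HFL1 minus 35S-15 was 0.22 (-0.91 to 1.34; limma adjusted p 0.988). The error in these fits takes in the WT spread. In a fit without WT array 1, HFL1 minus GR14 was again 0.80 and passed with a limma adjusted p of 0.0249, and in a fit of those 2 groups alone the limma adjusted p was 0.04. The order of METK3 levels was HFL1, 35S-15, GR14 and WT over all arrays, and no neighbouring pair in it passed.

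**Figure D2:**
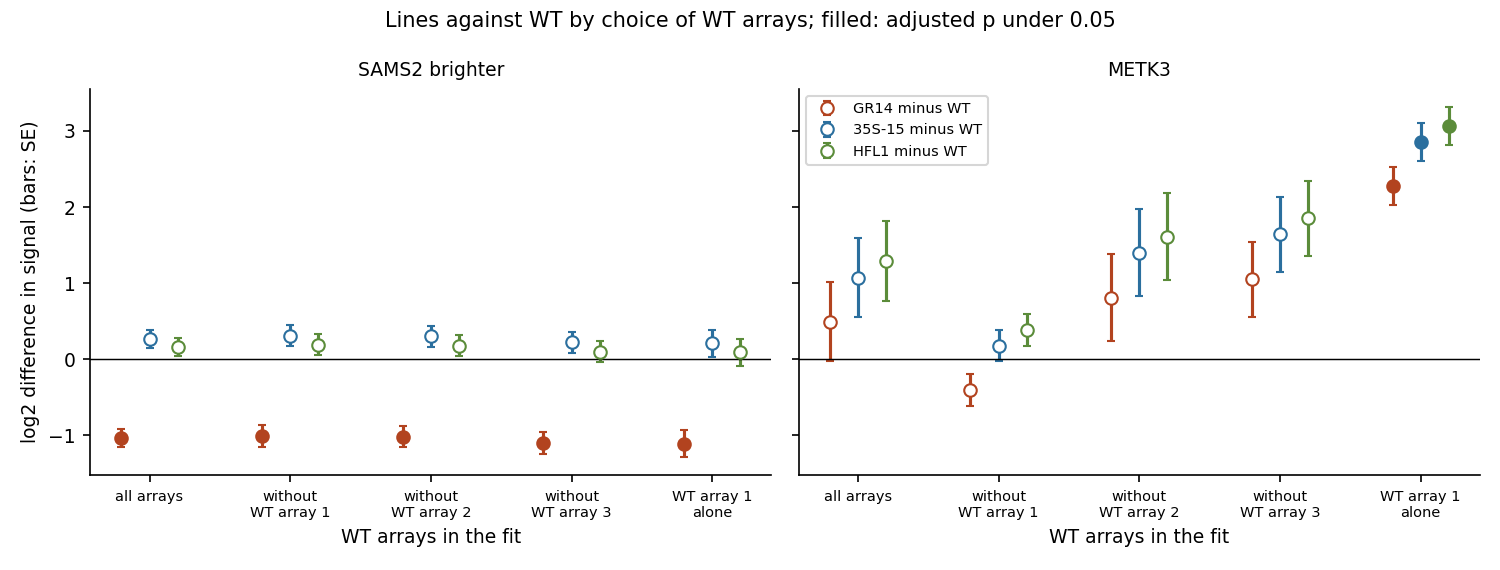
Log2 difference in signal from WT (vertical axis, bars are SE) for the brighter SAMS2 probe set at left and METK3 at right, when all arrays, all but 1 WT array, or WT array 1 alone represent WT; filled points have a limma adjusted p under 0.05. SAMS2 in GR14 stays near -1 throughout, while METK3 in GR14 runs between -0.40 without WT array 1 and 2.27 with that array alone.

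The annotation holds 1 more synthetase gene, SAMS (LOC4337733, also called SAM1), which was examined beside them. Its probe set read 19272, 20484 and 17575 on the GR14 arrays, 22194, 23026 and 24370 on those of 35S-15, 22219, 25649 and 19789 on those of HFL1, and 19068, 17843 and 19402 on the WT arrays. GR14 and WT overlapped. The log2 means were 14.22 ± 0.11 in GR14, 14.50 ± 0.07 in 35S-15, 14.45 ± 0.19 in HFL1 and 14.20 ± 0.06 in WT (SD, n = 3 each). GR14 minus WT was 0.02 (95% interval -0.24 to 0.29; limma adjusted p 0.94), an interval that spans ratios of 0.847 to 1.22. SAMS thus showed no difference of the size that SAMS2 showed, and its sign turned under quantile normalization and median centring. 35S-15 minus WT was 0.31 (limma adjusted p 0.803) and HFL1 minus WT was 0.26 (0.749).

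SAMS2 was then set against SAMS within each array, a comparison added after the data were seen. The log2 signal of the brighter SAMS2 probe set minus that of SAMS was -1.92 ± 0.20 in GR14 (range -2.09 to -1.70), against -0.85 ± 0.15 in WT (range -1.02 to -0.74; SD, n = 3 each). The groups did not overlap, and the change of -1.07 had an exact two-sided permutation p of 0.1, the smallest possible. The same measure changed by 0.97 for HFL1 minus GR14 and by 1.04 for 35S-15 minus GR14, each with an exact permutation p of 0.1. It changed by -0.03 for 35S-15 minus WT (exact permutation p 0.9) and by -0.10 for HFL1 minus WT (0.4). The measure was lower on every GR14 array than on any array of the other groups. It restates 2 differences of GR14 from WT, -1.04 for the brighter SAMS2 probe set and 0.02 for SAMS. It is thus no separate evidence. The permutation test cannot separate groups of 3 arrays, since its smallest possible p is 0.1. METK3 and the dimmer SAMS2 probe set were not part of this measure.

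Over the 12 arrays the Pearson r of log2 signal was 0.19 between the brighter SAMS2 probe set and METK3, 0.31 between the dimmer one and METK3, 0.52 between the brighter SAMS2 probe set and SAMS, and 0.44 between METK3 and SAMS. These are descriptions over arrays that share groups. SAMS2 and SAMS did not share a single profile, with GR14 minus WT at -1.04 for the brighter SAMS2 probe set and 0.02 for SAMS. Each r of METK3 takes in WT array 1, which read 330.5, and r without that array was not calculated. Without it the mean log2 signal of METK3 was also lowest in GR14, at 10.64. It was then 11.04 in WT, 11.22 in 35S-15 and 11.44 in HFL1, and GR14 minus WT did not pass. Probe sequences were not used here, so whether transcripts of related synthetase genes bind each other's probes was not tested.

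**Figure D3:**
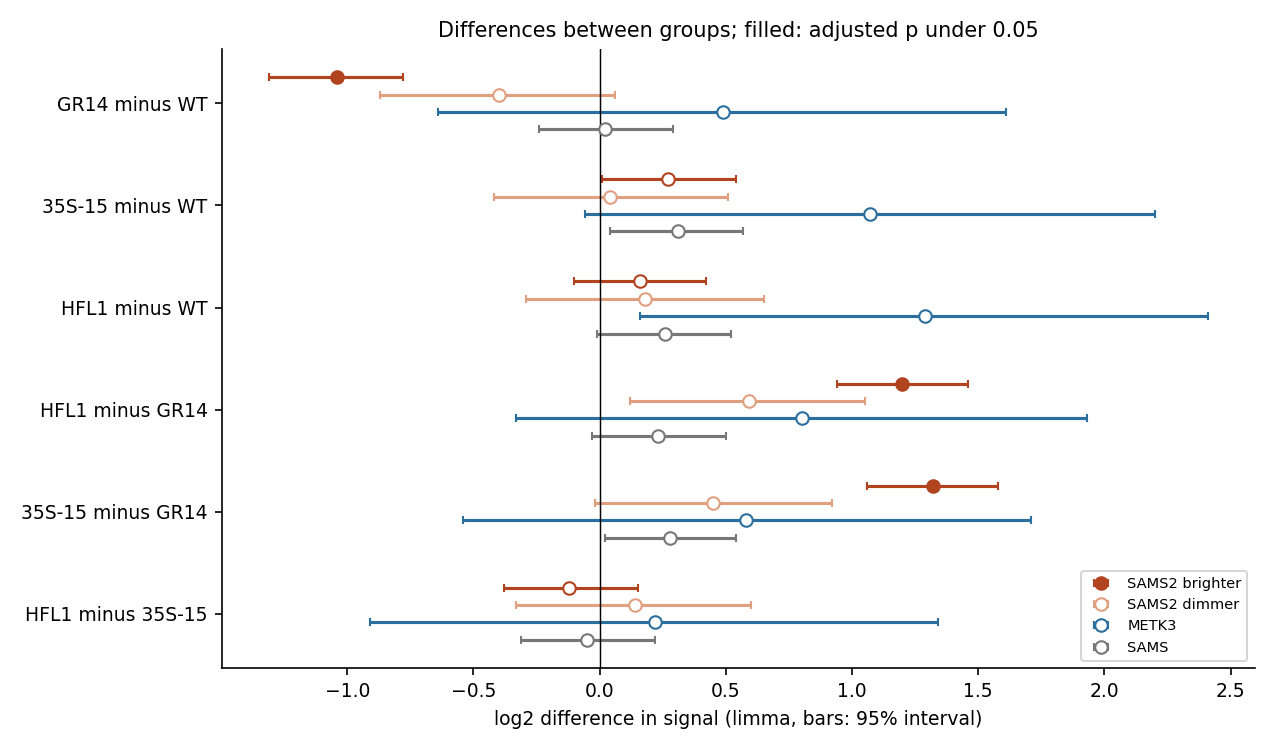
Log2 difference in signal (horizontal axis) with its 95% interval for the 6 comparisons of groups, for both SAMS2 probe sets, METK3 and SAMS; filled points have a limma adjusted p under 0.05. The filled points are the brighter SAMS2 probe set at -1.04 in GR14 minus WT, at 1.20 in HFL1 minus GR14 and at 1.32 in 35S-15 minus GR14.

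Genes of methionine salvage, of cysteine synthesis, of the lysine branch of the aspartate family and of reactions that use S-adenosylmethionine were listed by name in 8 groups, the 3 synthetase genes included. No gene of methionine synthesis itself was among them. Of 39 named genes 35 were tested. In GR14 against WT, 7 of the 35 were lower and 0 higher by at least 1 probe set. Over all 16151 genes tested, 4.17% were lower and 3.60% were higher by the same rule, and the median difference was 0.03. With the filter at the 70th percentile, 7 of 30 list genes were called, and 1885 of all 18554 probe sets were called in either direction. The lists were chosen with earlier results of these data known, so the counts are only a description. In 35S-15 against WT, 0 of 35 changed by limma, where 0.0248% of all genes did and 1969 of all probe sets had an unadjusted p under 0.05. In HFL1 against WT, 0 of 35 changed by limma, where 0.0186% of all genes did and 2142 of all probe sets had an unadjusted p under 0.05. In each of these 2 comparisons the count was 1 without WT array 1, when SAT1 passed, and 1 with that array alone, when METK3 did. In GR14 the count of 7 became 4 without WT array 1, GR14 array 2 or GR14 array 3, and 3 without WT array 2, and SAMS2, ASMT3 and ROMT-15 were called each time.

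In the lysine branch, none of 4 lysine and diaminopimelate synthesis genes passed in GR14. DAPB1 and DAPB2, dihydrodipicolinate reductases, differed by -0.07 and 0.11 in log2 signal, DAPF, the diaminopimelate epimerase, by 0.14, and LYSA, the diaminopimelate decarboxylase that makes lysine, by 0.13. These genes neither make methionine nor use S-adenosylmethionine. Among 3 genes of sulfur assimilation into cysteine, SAT1, a serine acetyltransferase, fell in GR14 by 1.55 ± 0.36 on the log2 scale (SE; limma adjusted p 0.0247). The GR14 and WT arrays of SAT1 overlapped, its other probe set was at 0.43 (limma adjusted p 0.438), and with WT array 1 alone as WT its difference was -0.55 (0.56). It passed under 14 of 21 alternatives and not without WT array 2, WT array 3, GR14 array 1 or GR14 array 3, where it ran from -1.48 to -1.25. Its log2 level was 10.33 ± 0.59 in GR14 seeds, 10.31 ± 0.21 in 35S-15 seeds and 10.51 ± 0.19 in HFL1 seeds, against 11.88 ± 0.87 in WT seeds (SD, n = 3 each). The cysteine synthases RCS1 and RCS3 were at 0.25 and -0.05.

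In the salvage of methionine from methylthioadenosine, the by-product of ethylene, polyamine and nicotianamine synthesis, 1 of 3 genes fell. ARD4, an acireductone dioxygenase near the end of the salvage cycle, had a log2 level of 9.97 ± 0.31 in GR14 seeds, 11.54 ± 0.32 in 35S-15 seeds and 11.30 ± 0.55 in HFL1 seeds, against 11.18 ± 0.35 in WT seeds (SD, n = 3 each). GR14 minus WT was -1.21 ± 0.27 (SE), with a limma adjusted p of 0.0191 that ran from 0.00719 to 0.111 over the alternatives. It passed under 16 of 22 alternatives, and not without WT array 1, WT array 2, GR14 array 2 or GR14 array 3, where the difference ran from -1.18 to -1.07. With WT array 1 alone as WT it was -1.32 and did not pass (limma adjusted p 0.111). MTK1, the methylthioribose kinase, was at 0.30, and IDI2, named for the isomerase of the same cycle, was at -0.21 and -0.53 by its 2 probe sets.

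Among 4 polyamine genes, SAMDC, the decarboxylase that commits S-adenosylmethionine to spermidine and spermine, fell in GR14. Its log2 level was 13.63 ± 0.14 in GR14 seeds, 14.35 ± 0.12 in 35S-15 seeds and 14.25 ± 0.14 in HFL1 seeds, against 14.24 ± 0.27 in WT seeds (SD, n = 3 each). GR14 minus WT was -0.61 ± 0.15 (SE; limma adjusted p 0.0281, range 0.0182 to 0.19 over the alternatives), and a dim second probe set was at -0.59 (0.424). The brighter one passed under 13 of 22 alternatives, and not without WT array 1, WT array 2 or any 1 of the GR14 arrays, where the difference ran from -0.67 to -0.47. With WT array 1 alone as WT it was -0.54 and did not pass (limma adjusted p 0.19). ADC1, an arginine decarboxylase that makes putrescine, was at -1.22 (limma adjusted p 0.0675) and -0.28 by its probe sets. ADC2 was at -0.33 and the spermidine synthase gene SPDSYN1 at -0.20. For ethylene, ACO1, the oxidase of the last step, was the single tested gene of 3 and was at -0.21 in GR14. For nicotianamine, 3 of 4 genes were tested and none passed, with NAS1 at -0.12, NAS3 at 0.06 and the aminotransferase gene NAAT1 at -0.22.

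Of 14 tested methyltransferase genes, 3 were lower in GR14 than in WT, where 4.17% of all genes were lower. ASMT3 and ASMT1 are named for N-acetylserotonin methyltransferase, which makes melatonin, and ROMT-15 is an O-methyltransferase gene. These are named for enzymes that act on small molecules, but not every such gene fell. ROMT-17, another O-methyltransferase gene, was at -0.21, -0.05, 0.39 and -0.12 by its probe sets, none of which passed. ASMT3 had a log2 level of 7.93 ± 0.59 in GR14 seeds, 12.02 ± 0.20 in 35S-15 seeds and 11.46 ± 0.36 in HFL1 seeds, against 11.22 ± 0.61 in WT seeds (SD, n = 3 each). GR14 minus WT was -3.28 ± 0.32 for ASMT3 (SE; limma adjusted p 5.36e-05), -1.92 ± 0.19 for ROMT-15 (5.36e-05) and -2.03 ± 0.46 for ASMT1 (0.0203). ASMT3 and ROMT-15 passed under every alternative run, and ASMT1 under 16 of 22, with -1.79 without WT array 1, -1.81 without WT array 2 and -1.50 without GR14 array 2 among those that did not. With WT array 1 alone as WT, ASMT1 was at -2.50 and did not pass (limma adjusted p 0.0537).

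The DNA and protein methyltransferases did not pass in any comparison with WT. In GR14 the DNA methyltransferase gene DRM3 was at 0.39 (limma adjusted p 0.133), 0.06 (0.868) and 0.32 (0.691) by its probe sets. MET1B, also a DNA methyltransferase gene, was at 0.26, and PRMT10, a protein arginine methyltransferase gene, at -0.65. VTE4, the tocopherol methyltransferase, was at -0.25. Over the 14 genes the differences ran from -3.28 to 0.39 with a median of -0.12.

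**Figure D4:**
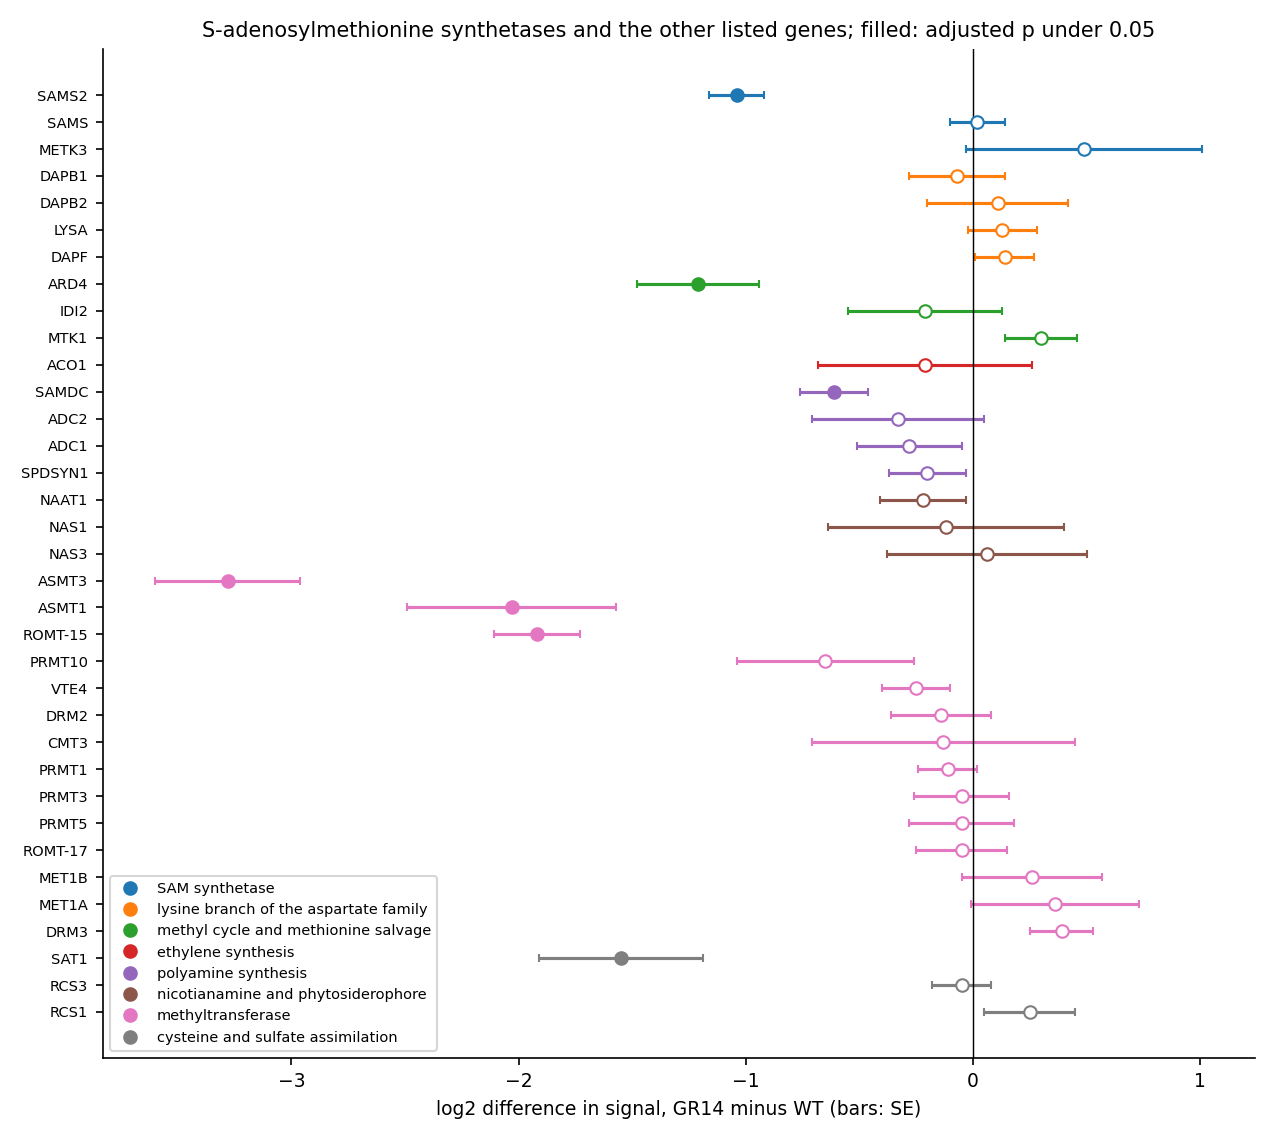
Log2 difference in signal of GR14 minus WT (horizontal axis, bars are SE) for the 35 tested genes of the 8 lists, coloured by list, with the brightest probe set of each gene; filled points have a limma adjusted p under 0.05. The filled points are SAMS2, ARD4, SAMDC, ASMT3, ASMT1, ROMT-15 and SAT1, all left of 0.

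Against GR14, 6 of the 35 genes were higher in HFL1 and 0 lower, and in 35S-15 6 were higher and 1 lower. Over all genes 5.57% were higher and 3.64% lower in HFL1 than in GR14, and 4.80% were higher and 3.42% lower in 35S-15 than in GR14. For HFL1 and 35S-15 the log2 differences from GR14 were 1.32 and 1.57 for ARD4, 0.63 and 0.72 for SAMDC, 1.94 and 1.85 for ROMT-15, 1.81 and 1.76 for ASMT1, and 3.53 and 4.09 for ASMT3, all of which passed together with SAMS2. SAT1 stood apart from these, at 0.18 and -0.02. The gene that was lower in 35S-15 than in GR14 was ROMT-17 by 1 of its probe sets, at -0.73 (limma adjusted p 0.00798). Between HFL1 and 35S-15, 0 of 35 genes changed by limma, where 0.0124% of all genes did and 1418 of all probe sets had an unadjusted p under 0.05.

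The 6 other named genes whose log2 signals followed the brighter SAMS2 probe set most closely over the 12 arrays were CHLP (Pearson r 0.99), GluTR (0.99), ASMT3 (0.98), CFBP1 (0.98), RCAA1 (0.98) and CAO (0.98). CHLP encodes geranylgeranyl reductase, GluTR glutamyl-tRNA reductase and CAO is named for chlorophyllide a oxygenase, all of chlorophyll synthesis, RCAA1 encodes rubisco activase and CFBP1 a fructose bisphosphatase. Each was lower in GR14 than in WT, by log2 differences of -1.75 for CHLP, -1.34 for GluTR, -1.31 for CFBP1, -2.82 for RCAA1 and -2.34 for CAO. The genes were picked by r over arrays that hold the GR14 difference of SAMS2, so a lower level in GR14 follows from the choice. Without the 3 GR14 arrays r over the other 9 was 0.89 for CHLP, 0.80 for GluTR, 0.86 for ASMT3, 0.86 for CFBP1, 0.53 for RCAA1 and 0.52 for CAO. The likeness thus rests in part on the GR14 arrays, most for RCAA1 and CAO, and the points share their groups. The r over 9 arrays is of genes picked over all 12, so it too is only a description.

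Most of the green pericarp and leaf markers that passed in GR14 were lower there, as SAMS2 was. The list's summed signal over 10 genes was 64509 to 72643 in GR14, 103594 to 139649 in 35S-15 and 102875 to 125099 in HFL1, against 87074 to 97406 in WT. Of 9 tested, 5 were lower in GR14 than in WT and 1 higher, with a median log2 difference of -1.01, where 4.17% of all genes were lower and 3.60% higher. LIR1, a light-induced gene, was the higher one, by 2.52 (limma adjusted p 0.00013). The antenna protein gene CAB2R was at 0.09 (0.798) and RBCS, for the small subunit of rubisco, at -0.28 (0.395) by their brightest probe sets. On every array 9 of the 10 were above the array median. Summed endosperm markers were 379640 to 518095 in GR14, 405446 to 603200 in 35S-15 and 376760 to 467439 in HFL1, against 319657 to 416112 in WT. Of 11 tested, 1 passed in GR14 against WT, the transcription factor gene NFYB1, at -0.72 (limma adjusted p 0.0151). NFYB1 was not low in GR14 alone, since it was at -0.91 in 35S-15 (limma adjusted p 0.0939) and -0.81 in HFL1 (0.267) against WT.

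Summed embryo and aleurone markers overlapped among the groups, at 37501 to 105385 in GR14, 56271 to 93591 in 35S-15, 17900 to 63364 in HFL1 and 19098 to 91992 in WT. Of 6 tested, 1 passed in GR14 against WT, VP1, a transcription factor gene of seed maturation, which was higher by 1.25 (limma adjusted p 0.0139). VP1 was lower in HFL1 than in GR14 by a log2 difference of -1.89 (limma adjusted p 0.000678) and in 35S-15 than in GR14 by one of -1.50 (0.00398). The 5 pollen, stamen and root markers summed to 265.5 to 466.8 in GR14, 709.7 to 1272 in 35S-15 and 736.5 to 1045 in HFL1, against 478.3 to 745.9 in WT. Of 2 tested, 1 passed in GR14 against WT, RAA1, at -3.55 (limma adjusted p 0.0035), and both were higher in HFL1 and in 35S-15 than in GR14. RAA1 was dim, at a log2 level of 2.62 ± 0.75 in GR14 and 6.17 ± 0.39 in WT (SD, n = 3 each). The GR14 array medians were 5.85 to 5.99, so RAA1 met the filter only through the other groups, and its difference includes values near the floor. No marker was at 0. The part of tissue make-up in the SAMS2 result was not tested. GR14 array 3 had the widest gap between the 3' and 5' probe sets of actin, at 6.43 in log2 signal against 4.69 to 5.92 elsewhere. The widest GAPDH gap was 4.93 on 35S-15 array 1, against 3.87 on GR14 array 3, and cyclophilin gaps ran from 0.70 to 1.32 over all arrays. The part of RNA quality in the SAMS2 result was not tested. Without GR14 array 3 the SAMS2 difference of GR14 from WT was -1.10.

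The 6 other named genes nearest to METK3 were ILI6 (Pearson r 0.88), SAP7 (0.88), LTP110-A (0.81), P5CS2 (0.80), YSL5 (0.80) and CARA (0.79). P5CS2 is named for an enzyme of proline synthesis, YSL5 for a family of metal chelate transporters, LTP110-A for a lipid transfer protein and SAP7 for a stress-associated zinc finger protein. Without WT array 1, r over the other 11 arrays was 0.48 for ILI6, 0.35 for SAP7, 0.77 for LTP110-A, 0.70 for P5CS2, 0.56 for YSL5 and 0.47 for CARA. The r of each of the 6 was lower without that array, and lowest for SAP7, CARA and ILI6. None of the 6 passed in any of the 3 comparisons with WT.

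**Figure D5:**
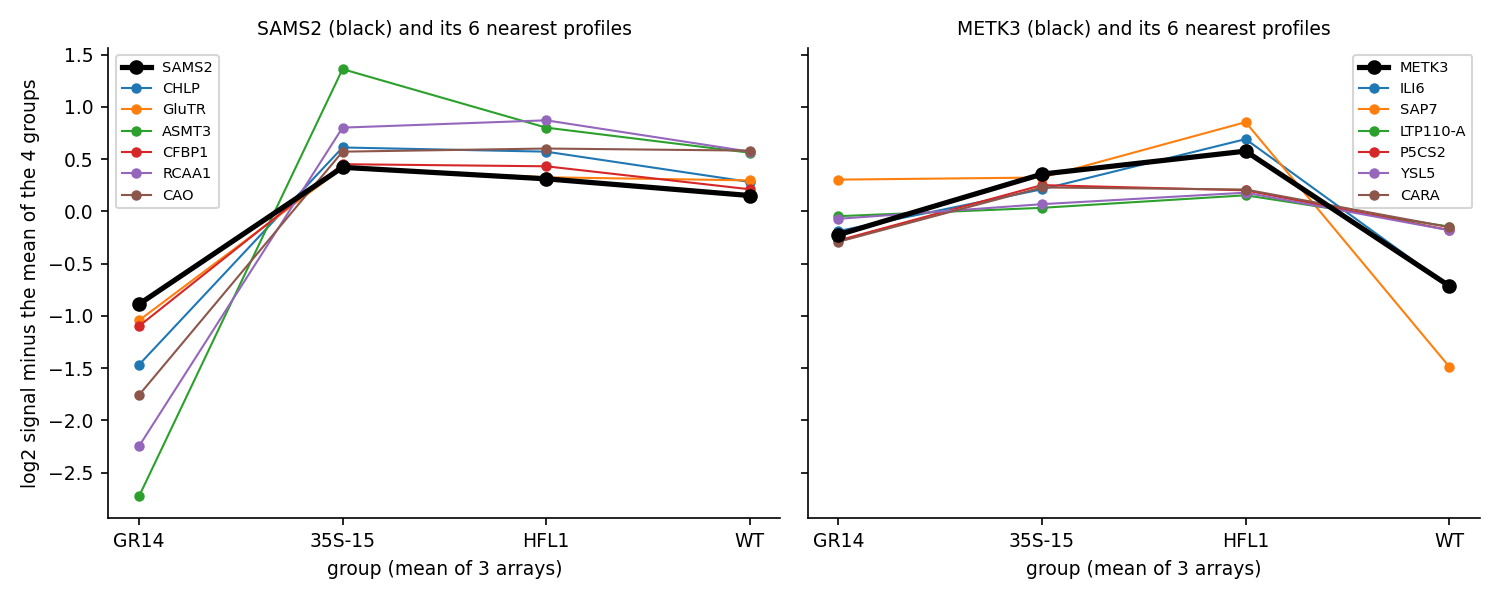
Group means of log2 signal minus the mean of the 4 groups (vertical axis) for the brighter SAMS2 probe set at left and METK3 at right, in black, each with the 6 named genes of highest Pearson r over 12 arrays; each point is a mean of 3 arrays and lines only join the points of a gene. Each gene of the SAMS2 set has its lowest mean in GR14, while each of the METK3 set has its lowest mean in WT or in GR14. The genes were picked by that r, so a like shape follows from the choice.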

How the data were processed

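The deposited values are MAS5 signal, a linear intensity for each probe set; the submitters' processing notes name MAS5, with no version or settings recorded in what was read here. Without the top and bottom 2% of values the mean was 500.1 on each array, so arrays had been scaled before deposit. No further normalization was applied, and log2 of the signal was taken. AFFX (123) and RPTR (64) control probe sets were dropped. The tests covered the 31792 probe sets above their array's median on at least 3 of 12 arrays. One linear model over the 4 groups was run in limma 3.58.1 (R 4.3.3; eBayes with an intensity trend), two-sided, with Benjamini-Hochberg adjustment over all tested probe sets at 0.05. Within-array differences were tested by exact permutation over arrays. Depth does not apply to arrays, and their number limits the precision; 0 pairs of arrays were identical and 0 columns were left unused. Replicate numbers follow accession order.

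Probe sets were named from the array's gene annotation, updated through RefSeq identifiers. The 2 genes, the gene lists and the tests were chosen with earlier results of these data known. Named in the text were all probe sets of SAMS2 and METK3, every list gene past the threshold against WT, up to 3 more per list with the lowest p in GR14, and the 6 genes most like each by Pearson r. ROMT-17, DAPB1, ADC2, SPDSYN1, MET1B, VTE4, SAMS and the marker genes were named beyond this rule after their values were seen. Some list names that the annotation gives to other genes were removed before their values were read. Alternatives were other normalizations, filters, pseudocount, variance settings, fits of 2 groups, probe set classes, WT array 1 alone and leaving out each array. No sequence or coordinate is printed, since none was used here.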

Additional observations from a re-analysis of the deposited data

How the results depend on the processing

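Of 396 combinations of 18 member differences and 22 alternatives, 385 kept their direction and their side of the threshold, and for the brighter SAMS2 probe set all did. For the dimmer one, 35S-15 minus WT turned to -0.11 under median centring, which removes a shift of 0.16 between the array medians of those groups. Leaving out 1 array moved that difference between -0.13 and 0.25, and HFL1 minus 35S-15 between -0.07 and 0.31. For METK3 the same exercise moved GR14 minus WT between -0.40 and 1.05 and HFL1 minus GR14 between 0.66 and 0.96. With WT array 1 as the only control METK3 differed from WT by 2.27 for GR14, by 2.85 for 35S-15 and by 3.07 for HFL1. HFL1 minus GR14 of METK3 was 0.80 there, in the fit of 2 groups and without WT array 1, and it passed in each. The first 2 of these fits leave out the WT spread, and the last keeps that of WT arrays 2 and 3. SAMS in GR14 against WT was -0.00 under quantile normalization and -0.05 under median centring, and between -0.03 and 0.08 with 1 array left out.

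The count of all probe sets called in GR14 minus WT was 1799, and 1160 without the intensity trend, 737 with WT array 1 alone and 969 to 1821 with 1 array left out, lowest without GR14 array 2. 35S-15 minus WT gave 9, then 26 with WT array 1 alone and 7 to 15 with 1 array left out. HFL1 minus WT gave 9, then 24 and 6 to 18. HFL1 minus GR14 gave 2133, and 1167 to 2164 with 1 array left out, lowest without HFL1 array 1. 35S-15 minus GR14 gave 1889, then 1259 without the trend and 1123 to 1921 with 1 array left out. HFL1 minus 35S-15 gave 2, then 1 to 3. Pathway genes called in GR14 against WT numbered 7, and 3 without the trend, 4 in the fit of 2 groups, 4 with WT array 1 alone and 3 to 8 with 1 array left out. In 35S-15 and in HFL1 against WT they numbered 0, 1 with WT array 1 alone, and 0 to 1 with 1 array left out. The SAT1 probe set called in GR14 ends in _x_at, so it had no value in the fit without such probe sets. The other SAT1 probe set stayed in that fit, and SAT1 was not called there. Beyond fewer arrays in the fit, the cause was not tested. No paired analysis was possible because the labels give no replicate numbers within a group.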
